A study of Mus musculus with 57 samples.

Results

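The progeny of double-positive (Sox1+FoxA2+) cells were compared between D6 and D4 across all genes, in 6 of the 57 RNA-seq libraries of the series, taken by their labels: 3 replicates of the D6 and 3 of the D4 progeny. The cells were mouse ESCs of the Sox1-EGFP/FoxA2mCherry line, in which EGFP stands in place of a Sox1 allele and mCherry is fused to the FOXA2 protein. All of them spent 2 days in N2B27 medium with 1 uM retinoic acid (RA), were sorted at D2 for both reporters, and were replated in serum medium without LIF and with 1 uM RA for 2 more days (D4) or 4 more days (D6). Genotype, medium and RA dose were therefore the same on both sides, and the labelled difference was the days of culture. Effects of harvest or library making shared by the libraries of a day cannot be told apart from it. The cells were not sorted again at harvest, so that a library holds whatever the D2 cells had become, and the line limits the data as a model in that 1 Sox1 allele is replaced by the reporter. The progeny of the 2 single-positive populations, Sox1-FoxA2+ and Sox1+FoxA2-, were sorted, replated and harvested in the same way, with 3 libraries each per day, and enter for comparison.

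In the early mouse embryo, primitive endoderm gives rise to visceral endoderm, which envelops the epiblast and takes up maternal proteins, and to parietal endoderm, which moves out along the inner face of the trophoblast and secretes the thick basement membrane named after Reichert. GATA and SOXF transcription factors act early in this lineage. The trimer of laminin alpha 1, beta 1 and gamma 1, together with type IV collagen, makes up much of that membrane, and the receptors cubilin and megalin take up protein from the fluid around the endoderm. RA turns embryonic stem cells towards both neural and extraembryonic endoderm-like fates, which is the setting of the sort on Sox1, a marker of neuroectoderm, and FOXA2, a marker of endoderm.

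The 3 D4 libraries held 13480175, 34167909 and 33568259 counts (replicates 1, 2 and 3), and the 3 D6 libraries 24946933, 38668537 and 36626677. Genes with at least 1 count numbered 23230, 21057 and 23876 at D4 and 18379, 24211 and 24267 at D6. D6 replicate 1 stood apart from the other 5 libraries. It had the fewest genes, and its Spearman correlation across genes with the others was 0.865 to 0.877, while the other pairs had 0.898 to 0.928, so that counts of called genes are also given without it. Mitochondrial genes took 11.1% to 18.5% of the counts at D4 and 11.9% to 14.9% at D6. A limit of 3 counts corresponds to between 2.46 and 8.09 normalized counts in these libraries, for counting error only. Most low counts were even, as when both mates of a pair are counted, so that this limit may rest on fewer fragments than counts. Between replicates of a day the chi-square of counts per degree of freedom was 95.6 to 177, where counting error alone gives 1.

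The labelled population can be followed in part by its reporter genes. Foxa2 (ENSMUSG00000037025.11, on chromosome 2 of GRCm38 from 148042877 to 148046969) was measured at 275, 1003 and 231 normalized counts in the 3 D4 libraries and 456, 769.8 and 634 in the 3 D6 libraries. The days overlapped, and the log2 fold change of 0.32 (SE 0.552) was not called (edgeR's quasi-likelihood test, adjusted p = 1). Without 1 library it ranged from -0.03 (without D4 replicate 3) to 1.31 (without D4 replicate 2), never with a call, so that its sign is not settled. Its D6 mean of 619.8 ± 158 (SD, n = 3) lay between 2694 ± 180.0 in Sox1-FoxA2+ and 196 ± 28.7 in Sox1+FoxA2- progeny. Sox1 is listed at 0 in all 18 progeny libraries. It lies with 100% of its exon bases inside another annotated gene, and of 688 coding genes placed inside another gene with no shared exon only 3 have any count in the deposited table, so that the Sox1 transcript cannot be followed here.

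From D4 to D6, 24 genes rose (0.0999% of the 24025 tested) and 1 fell (0.00416%), or 0.104% in both directions, by edgeR's quasi-likelihood test with a Benjamini-Hochberg adjusted p under 0.05. The rise with the smallest p was that of Cubn, the gene of the endocytic receptor cubilin, and the others included Lama1 and Lamb1, which encode laminin chains, Gata4, a GATA factor of the endoderm, and Srgn, which encodes the proteoglycan serglycin. The fall was that of Pkdcc, which encodes a secreted tyrosine kinase. For all 25 genes the 3 libraries of one day lay clear of the 3 of the other, as they did for 5.45% of all genes tested on the higher side and 6.34% on the lower side. At an unadjusted p under 0.05 there were 1384 genes (5.76%), 741 of them higher at D6 (3.08%) and 643 lower (2.68%). The median log2 fold change over all genes tested was -0.01, and 49.3% of them were above 0.

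**Figure D1:**
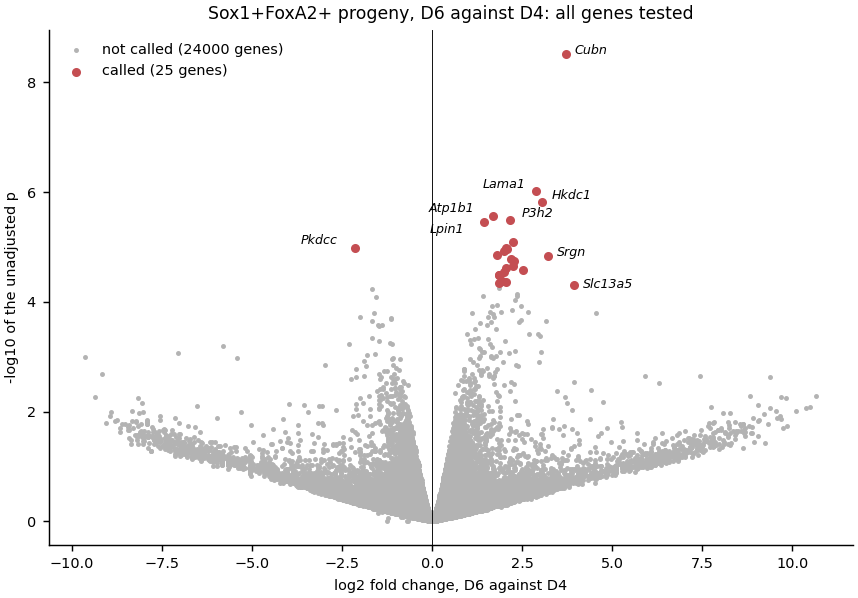
Log2 fold change from D4 to D6 (x axis) against the -log10 of the unadjusted p (y axis) for the 24025 genes tested in Sox1+FoxA2+ progeny. The 25 called genes are in red, 24 on the right and 1 on the left, with Cubn highest at a log2 fold change of 3.71.

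The count depended on single libraries. Without D4 replicate 1 there was 1 call, without D4 replicate 3 there were 2, without D6 replicate 1 there were 9 and without D6 replicate 2 there were 15, all of them among the 25, and in a fit of all 57 libraries there was 0 (540 genes at an unadjusted p under 0.05), whereas DESeq2's Wald test called 123 genes and a fit with no filter on low counts 212. Cubn was the only 1 of the 25 that was called in each of the 6 fits without 1 library. Of the others, 5 were kept in 4 of these fits, 6 in 3, 6 in 2 and 7 in 1.

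The start regions of called genes were read to show what these genes share outside the counts, since the transcripts of GATA and forkhead factors were measured in the same libraries. RefSeq (GRCm38.p6) start regions, from 250 bases before to 50 bases after a start site, were at hand for 21 of the 25 called genes, with 33 entries. Gata4, Lama1, Epas1 and P3h2 had no entry. The letters GATAA, the core of sites bound by GATA factors, were searched on both strands (TTATC on the other), and so were the letters TGTTTAC of forkhead sites (GTAAACA on the other), which do not overlap the first. GATAA was in 6 of the 33 entries (18.2%), those of Klb, Lrpap1, Nxf7, Ppfibp2 and Retreg1, and in 25.4% of the 32851 entries of all genes. TGTTTAC was in 1 of the 33 (3.03%), an entry of Ppfibp2, and in 3.65% of all. Below are the regions of Cubn and Lamb1, with no match to either, and of Klb, with GATAA in capitals 28 bases before the start site. The Cubn region is at chr2:13491827-13492126 on the minus strand, that of Lamb1 at chr12:31265043-31265342 on the plus strand and that of Klb at chr5:65348161-65348460 on the plus strand.
Cubn: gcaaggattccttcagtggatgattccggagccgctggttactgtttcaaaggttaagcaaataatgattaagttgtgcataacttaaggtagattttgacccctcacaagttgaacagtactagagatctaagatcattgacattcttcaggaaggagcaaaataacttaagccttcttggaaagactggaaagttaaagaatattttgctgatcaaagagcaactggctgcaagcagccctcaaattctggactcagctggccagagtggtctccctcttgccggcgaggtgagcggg
Lamb1: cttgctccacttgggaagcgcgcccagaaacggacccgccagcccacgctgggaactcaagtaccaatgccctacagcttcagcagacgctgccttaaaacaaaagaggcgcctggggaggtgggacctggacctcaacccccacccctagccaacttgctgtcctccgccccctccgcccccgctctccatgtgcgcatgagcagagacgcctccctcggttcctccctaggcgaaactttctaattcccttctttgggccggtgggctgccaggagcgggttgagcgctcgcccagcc
Klb: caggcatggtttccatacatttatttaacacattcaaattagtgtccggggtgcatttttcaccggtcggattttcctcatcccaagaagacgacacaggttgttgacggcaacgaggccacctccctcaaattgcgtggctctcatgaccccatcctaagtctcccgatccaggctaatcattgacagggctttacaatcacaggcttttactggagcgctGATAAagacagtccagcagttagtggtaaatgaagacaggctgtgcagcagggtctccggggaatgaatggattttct
A match is a run of letters and not a measured site, and the share among entries of called genes was not above that among all entries. A gene can have more than 1 entry, and no share per gene was computed over all genes.

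Cubn (ENSMUSG00000026726.10, chromosome 2 from 13276338 to 13491813), whose product takes up vitamin B12 with intrinsic factor, apolipoprotein A1 and other ligands, had 690.3, 1311 and 610.0 normalized counts at D4 and 17709, 11009 and 5585 at D6. The lowest D6 library was thus above the highest D4 library by several times. The log2 fold change was 3.71 (SE 0.414, 95% interval 2.86 to 4.56, adjusted p = 7.16e-05, edgeR's quasi-likelihood test). The means stood 13.1-fold apart. Leaving out 1 library gave adjusted p-values up to 0.00147. Lrpap1, which encodes a chaperone of the LDL receptor family, to which megalin belongs, rose by 1.86 (SE 0.368, adjusted p = 0.0374, same edgeR test), from 1284, 3459 and 1626 normalized counts to 11882, 5719 and 5628. Lrp2, the gene of megalin, the partner receptor of cubilin, had 8510.0, 16761 and 16143 normalized counts at D4 and 45962, 28388 and 21422 at D6, with no overlap, but was not called (log2 fold change 1.20, adjusted p = 0.427, same edgeR test). Amn, the gene of the membrane anchor amnionless, had between 10.8 and 159 normalized counts over the 6 libraries, and Dab2, which encodes an adaptor for the receptors, had 1305, 3176 and 1146 against 3260.3, 2864 and 3559.9. Neither was called.

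The basement membrane genes Lama1 (ENSMUSG00000032796.8, chromosome 17 from 67697259 to 67822647) and Lamb1 (ENSMUSG00000002900.16, chromosome 12 from 31265234 to 31329644) both rose. Lama1 had 9869, 12362 and 9174 normalized counts at D4 and 119921, 72651 and 41714 at D6, a log2 fold change of 2.90 (SE 0.449, 95% interval 1.97 to 3.82, adjusted p = 0.0115, edgeR's quasi-likelihood test). Lamb1 had 9459, 12555 and 9242 at D4 and 53659, 35362 and 24062 at D6, a log2 fold change of 1.85 (SE 0.376, adjusted p = 0.0449, same edgeR test). In both, D6 replicate 1 was the highest and D6 replicate 3 the lowest of the D6 libraries. Without D4 replicate 1 or D4 replicate 3 neither gene was called (largest adjusted p 0.0825 for Lama1 and 0.332 for Lamb1, same edgeR test), and Lamb1 was kept only in the fit without D6 replicate 3. Lamc1, which encodes the third chain of the same trimer, had 19061, 27994 and 23364 normalized counts at D4 and 104335, 70668 and 43044 at D6, and was not called (log2 fold change 1.63, adjusted p = 0.105, same edgeR test). P3h2, which encodes a prolyl hydroxylase that modifies type IV collagen, rose by 2.18 (SE 0.365, adjusted p = 0.014, same edgeR test), from 388, 303 and 543 to 2195, 2050.4 and 1344, with 28.4% of its exon bases inside another gene, where reads are lost.

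**Figure D2:**
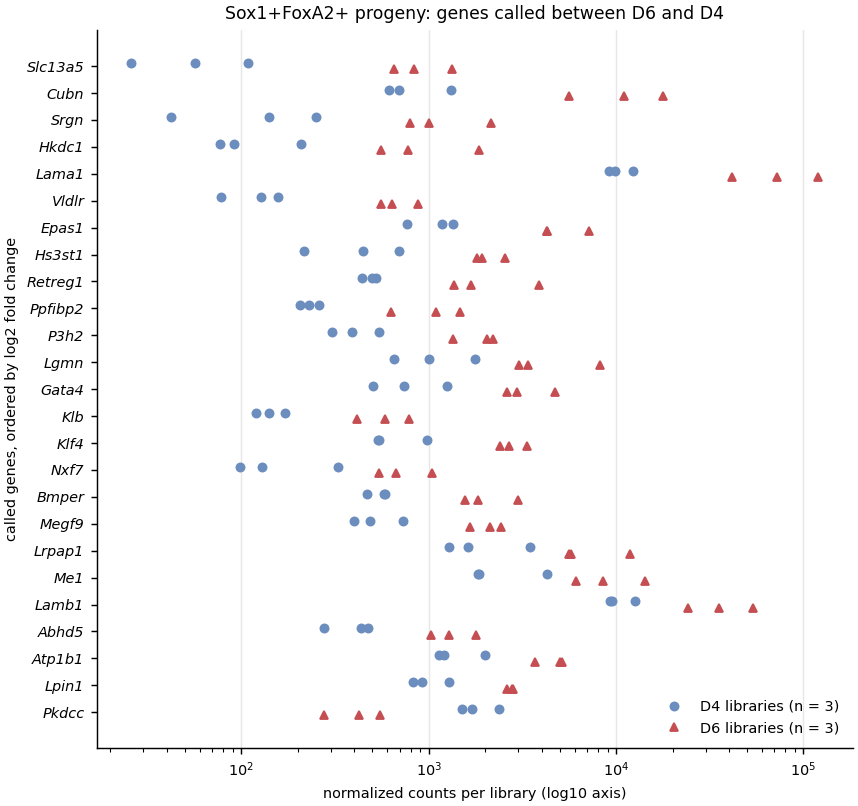
Normalized counts per library (x axis, log10) of the 25 called genes (y axis, ordered by log2 fold change) in the progeny of double-positive cells, with circles for D4, triangles for D6 and 3 libraries each. The libraries of the 2 days do not overlap for any of these genes, with Lama1 reaching 119921 at D6 from at most 12362 at D4.

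Gata4 (ENSMUSG00000021944.15, chromosome 14 from 63198922 to 63271692) was the transcription factor of the endoderm lists that rose, with 733, 1254 and 502 normalized counts at D4 and 4714, 2959 and 2621 at D6 (log2 fold change 2.05, SE 0.397, adjusted p = 0.0346, edgeR's quasi-likelihood test). It was not called without D4 replicate 1, D4 replicate 3 or D6 replicate 1, with adjusted p-values up to 0.33. Gata6 had 1467, 1771 and 1207 against 3357, 3154 and 2296 normalized counts and Sox7 550.1, 467 and 191 against 2336, 1225 and 1199, each without overlap and without a call. Sox17 had 205, 633 and 102 against 388, 1135 and 1076, with overlap. Klf4, which encodes a zinc finger factor known from naive pluripotency and from epithelia, rose by 2.04 (SE 0.371, adjusted p = 0.026, same edgeR test), from 534, 984 and 540.0 normalized counts to 2386, 3342 and 2678. Epas1, the gene of the hypoxia-inducible factor HIF-2 alpha, rose by 2.28 (SE 0.43, adjusted p = 0.0286, same edgeR test), from 1340.1, 1173 and 762 to 7188, 4289 and 4294.

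Several other genes that rose encode a transporter or enzymes. The lists of metabolism had no called member, with a median of -0.05 for glycolysis and hypoxia (22 tested, 10 above 0) and -0.13 for cholesterol synthesis (20 tested, 7 above 0), and both medians changed sign among the alternatives. Slc13a5, which encodes a citrate transporter of the plasma membrane, had the largest log2 fold change of the called genes, 3.95 (SE 0.804, 95% interval 2.29 to 5.60, adjusted p = 0.0464, edgeR's quasi-likelihood test), from 108, 25.9 and 56.4 normalized counts at D4 to 1325, 832 and 649 at D6. Its call was lost in 5 of the 6 fits without 1 library. Hkdc1, which encodes a hexokinase, rose by 3.06 (SE 0.488, adjusted p = 0.0123, same edgeR test), from 91.7, 208 and 76.4 to 1846, 772 and 553. Me1, which encodes the cytosolic malic enzyme, rose by 1.86, Lpin1, which encodes a phosphatidate phosphatase, by 1.45, and Abhd5, which encodes a co-activator of fat breakdown, by 1.80. For Lpin1 the D6 libraries lay close together, at 2813, 2789.7 and 2604 normalized counts, above 917, 1289 and 824 at D4. Vldlr, the gene of a receptor for lipoproteins and reelin, rose by 2.53 (SE 0.492, adjusted p = 0.0353, same edgeR test), from 127, 77.6 and 156 to 639, 553 and 874. Klb, the gene of the FGF co-receptor beta-Klotho, whose start region is printed above, rose by 2.04, from 140.2, 120.0 and 171 to 780.4, 584 and 415.

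Among secreted and surface products, Srgn had 140.2, 249 and 41.8 normalized counts at D4 and 791, 1003 and 2145 at D6, a log2 fold change of 3.22 (SE 0.601, adjusted p = 0.0271, edgeR's quasi-likelihood test). Here D6 replicate 3 was the highest library. The call was lost without it (adjusted p = 0.066), without D4 replicate 1 (0.126) and without D4 replicate 3 (0.21, same edgeR test). Bmper, which encodes a secreted binder of BMPs, rose by 1.99, from 585, 574 and 465 to 1825, 3007 and 1558. Hs3st1, which encodes a heparan sulfate sulfotransferase, rose by 2.24, from 690.3, 445 and 216 to 1925, 2538 and 1806. Atp1b1, the beta subunit of the sodium pump, rose by 1.70 (SE 0.281, adjusted p = 0.014, same edgeR test), with 1203, 1992 and 1140.1 against 3685, 5042 and 5173. Lgmn, which encodes a lysosomal protease, rose by 2.09, from 653, 1762 and 998 to 8191, 3367 and 3043. The remaining 4 rises on the log2 scale were 2.24 for Retreg1, which encodes a receptor for autophagy of the endoplasmic reticulum, 2.20 for Ppfibp2, which encodes a liprin, 2.01 for Nxf7, a member of a family of mRNA export factors, and 1.94 for Megf9, which encodes a membrane protein with EGF-like repeats. Pkdcc (ENSMUSG00000024247.14, chromosome 17 from 83215292 to 83225070) had 2367, 1691 and 1500.1 normalized counts at D4 and 422, 275 and 552 at D6 and fell by 2.13 on the log2 scale (SE 0.387, adjusted p = 0.026, same edgeR test).

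Just inside the threshold stood Slc13a5, with an adjusted p of 0.0464, and just outside it Adamts1 (log2 fold change 1.86, adjusted p = 0.0509) and Rapgef5 (-1.66, adjusted p = 0.0517), each by the edgeR test named above. Adamts1 encodes a protease of the extracellular matrix and Rapgef5 an exchange factor for Rap GTPases. These 2 were named after their values were seen.

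The genes were also read by 37 lists of pathways and cell types. Only 6 of the 25 called genes belong to a list, and 4 lists had a called member. Lists were read under only part of the alternatives, without the fit with no filter on low counts and that of all 57 libraries. Ranges given for lists cover the alternatives read. In bulk libraries, a change in the number of cells of a type and a change in RNA per cell cannot be told apart.

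The parietal endoderm list had the highest median of the 37. Of its 20 members, all tested, 4 rose (Gata4, Lama1, Lamb1 and Srgn) and 0 fell, and the median log2 fold change was 1.47, against -0.01 over all genes. Called rises were 0.0999% of all genes. Log2 fold changes were above 0 for 19 members (49.3% of all genes), and for 15 the D6 libraries lay above the D4 libraries (5.45% of all genes). The exception in sign was Cited1 (-0.28), which is known from the placenta as a regulator of transcription and had at most 251 normalized counts. The summed level of the list was 147816 ± 33706 normalized counts at D4 (SD, n = 3) and 429552 ± 145889 at D6, with Col4a1 as the member with most counts (25864, 34051 and 16553 against 114951, 65453 and 50525). Col4a1, which encodes a chain of type IV collagen, was not called (log2 fold change 1.60, adjusted p = 0.187, edgeR's quasi-likelihood test), nor was Fst, the gene of the activin antagonist follistatin, with 658, 1784 and 391 normalized counts against 5303, 4696 and 4522 (2.37, adjusted p = 0.0623, same edgeR test). Sparc, a matrix glycoprotein gene, had 19940.3, 30453 and 20452 against 68891, 57701 and 50540.2, and Thbd, the gene of thrombomodulin, 27.0, 109 and 25.5 against 291, 393 and 654. Over the alternatives read for lists, the number of called members ranged from 0 to 7 and the median from 1.25 to 1.76. It was 1.39 without D6 replicate 1.

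**Figure D3:**
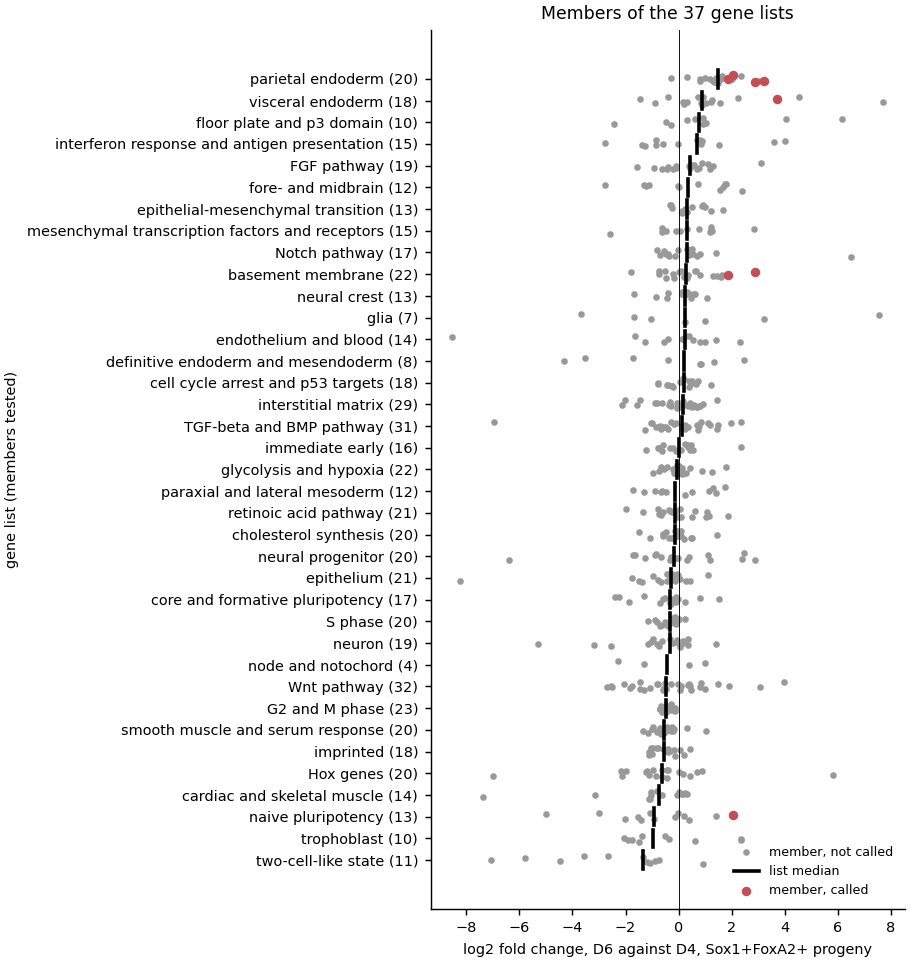
Log2 fold change from D4 to D6 in Sox1+FoxA2+ progeny (x axis) of every tested member of the 37 gene lists (y axis, with the number tested), called members in red and the median as a bar. Parietal endoderm has the highest median, at 1.47, and the 23 genes of the G2 and M phase list all lie left of 0 without a call.

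The visceral endoderm list had 18 of 20 members tested, of which Cubn alone rose (called rises were 0.0999% of all genes, here and for the next lists), with a median of 0.89. Its summed level was 19180.3 ± 6287 normalized counts at D4 and 48274.5 ± 18449.7 at D6 (SD, n = 3). Lrp2 and Cubn, whose counts are given above, made up most of this sum in all 6 libraries, so that it mainly follows these genes. Log2 fold changes were above 0 for 15 of the 18 (49.3% of all genes), and for 4 the D6 libraries lay above the D4 libraries (5.45% of all genes). Counts of its secreted products were few. Afp was at 0 in 4 of the 6 libraries and had 24.0 and 8.21 normalized counts in the others, Ttr had at most 154, Apob at most 113 and Apoa1 at most 39.3, with 0 in all D4 libraries and an uncalled D6 level that rests on D6 replicates 1 and 2. Trf is listed at 0, and 3 members, Afp among them, lie for most of their exon bases inside another gene and are undercounted. Hnf4a, a factor of the visceral endoderm, had between 44.3 and 246 normalized counts. Its member with most counts was Lrp2. The basement membrane list had 2 rises (Lama1 and Lamb1) among 22 members and a median of 0.27. Its members did not all point one way, since Col18a1 had 13453, 7615 and 13808 normalized counts at D4 and 4202, 2498 and 3319 at D6 (log2 fold change -1.79, adjusted p = 0.255, edgeR's quasi-likelihood test). In the naive pluripotency list, Klf4 alone rose among 13 members, and the median was -0.93. This median lay between -0.96 and 0.07 over the alternatives read for lists, so that its sign is not settled. Nanog had at most 266 normalized counts at D4 and 58.3 at D6, Esrrb between 283 and 369 over all 6 libraries, and Klf5, with the most counts, 4153, 5728 and 4698 against 3936, 6742 and 6116.

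In the other 33 lists no member was called. The neural progenitor list (20 of 24 members tested) had a median of -0.18 (-0.0026 without D6 replicate 1) and a summed level of 56631 ± 13474 normalized counts at D4 and 44406 ± 9549 at D6 (SD, n = 3). Its member with most counts, Meis2, had 18333, 9362 and 16918 against 6233, 15811 and 13269.9, and Sox1 and Sox2 are listed at 0, both of them inside another gene. Nes, which encodes the intermediate filament nestin, had 24236, 10582 and 10055 at D4 and 9247, 6435 and 9114 at D6. The neuron list (19 of 25) had a median of -0.33, with Syt1 at 2292, 1462 and 1586 against 1634, 2064 and 1811. Its members Tubb3, Neurog1, Neurod1 and Nefl are listed at 0 in the 6 libraries, so that the median does not cover them. In this list 3 members lie for most of their exon bases inside another gene. The epithelium list (21 of 21) had a median of -0.27, and its member with most counts, the keratin gene Krt8, had 18061, 29137 and 12227 normalized counts at D4 and 8728, 5292 and 6809 at D6, without overlap (log2 fold change -1.50, adjusted p = 0.111 by the same edgeR test, against 0.0424 by DESeq2's Wald test). In the smooth muscle and serum response list (20 of 23), 18 of the genes had log2 fold changes below 0, with a median of -0.56. For 7 tested members the D6 libraries lay below the D4 libraries (6.34% of all genes), and for 0 above. The member of this list with most counts, the tropomyosin gene Tpm1, had 128492, 108232 and 88646 against 84746, 47545 and 69545. Srf, Actc1 and Acta1 are listed at 0 in the 6 libraries.

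The lists of the cell cycle phases had medians below 0, and that of cell cycle arrest and p53 targets (18 of 18) had a median of 0.20, with 11 genes above 0 and 4 with D6 libraries wholly above D4 (5.45% of all genes). All 23 genes of the G2 and M phase list had negative log2 fold changes, with a median of -0.49 and values from -0.72 to -0.13, and 7 of them had D6 libraries wholly below D4 (6.34% of all genes). Its member with most counts, the topoisomerase gene Top2a, had 16281, 15865 and 19452 normalized counts at D4 and 9142, 11944 and 13571 at D6 (log2 fold change -0.56, adjusted p = 0.861, edgeR's quasi-likelihood test). Without D6 replicate 1 the median was -0.28. The S phase list (20 of 22) had a median of -0.32 (-0.16 without D6 replicate 1) and 18 genes below 0. For 7 of its genes the D6 libraries lay wholly below D4 (6.34% of all genes), and for 0 wholly above. Genes of the 2 lists are transcribed together through the cell cycle and do not count as independent, and the share of all genes with a log2 fold change above 0 was 49.3%.

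The RA pathway list (21 of 21) had a median of -0.12. Crabp2, which encodes a binding protein that carries RA to the nucleus, had 868, 633 and 1369 normalized counts at D4 and 183, 294 and 242 at D6 (log2 fold change -1.99, adjusted p = 0.0993, edgeR's quasi-likelihood test), without overlap. Cyp26a1, the gene of the RA-degrading enzyme, had 1165, 3348 and 2242 against 9354, 3282 and 1901, with D6 replicate 1 far above the other libraries. Of the 39 Hox genes, 20 could be tested and 14 are listed at 0 in the 6 libraries, with 16 lying for most of their exon bases inside another gene. The median was -0.61, and the gene with most counts, Hoxb4, had 2281, 958 and 1088 against 1000.4, 1086 and 717. For 6 Hox genes the D6 libraries lay below the D4 libraries (6.34% of all genes), and for 0 above. The two-cell-like list (11 of 13), which holds near-identical genes of the Zscan4 family whose reads cannot be placed with certainty, had a median of -1.33, which was -5.05 without D6 replicate 1, with Zscan4d at 361, 1379 and 296 at D4 and 147, 0.822 and 29.6 at D6. The imprinted list (18 of 22) had a median of -0.57, with Peg10, the member with most counts, at 171285, 280432 and 197883 against 194717, 184072 and 203688. For 5 of its members the D6 libraries lay below the D4 libraries (6.34% of all genes), and for 0 above. Igf2, Nnat, Ndn and Kcnq1ot1 are listed at 0 in the 6 libraries.

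Among lists of other lineages, none with a called member, the direction varied. The node and notochord list had 4 of 8 members tested, with Noto at 0 and a summed level of 354 ± 84.1 normalized counts at D4 and 326 ± 43.9 at D6 (SD, n = 3). The definitive endoderm and mesendoderm list (8 of 10) summed to 312 ± 286 and 525 ± 165, with Eomes at 43.1, 9.23 and 202 against 0, 239 and 397. The floor plate and p3 domain list (10 of 12) had the third highest median of the 37, at 0.76 (0.47 to 0.81 over the alternatives read for lists). For 3 of its members the D6 libraries lay above the D4 libraries (5.45% of all genes). Spon1 had 733, 749.7 and 644 normalized counts against 1645, 1868 and 774, and Nkx2-2 is listed at 0. The neural crest list (13 of 14) had a median of 0.25 that changed sign without D6 replicate 1 (-0.07), and its member with most counts, Ets1, had 3403, 5867 and 3212 against 9647, 9327 and 7371 (log2 fold change 1.09, adjusted p = 0.188, edgeR's quasi-likelihood test). For the mesenchymal list (15 of 18, with a median of 0.33 that ranged from -0.06 to 0.65) the summed level was 5521 ± 1169 normalized counts at D4 and 9486 ± 1887 at D6 (SD, n = 3), without overlap. Its Pdgfra, also a gene of the extraembryonic endoderm, had 1688, 1474 and 1166 against 1717, 2768 and 5025. The part of these genes in the rises above was not tested.

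The change from D4 to D6 was next set against that of the single-positive progeny, which share no library with it. In Sox1-FoxA2+ progeny 96 genes were called (0.4% of those tested, with 42 higher or 0.175% and 54 lower or 0.225%, and 8.21% at an unadjusted p under 0.05), and in Sox1+FoxA2- progeny 6 (0.025%, all higher, and 6.63% at an unadjusted p under 0.05). Of the 25 genes, 4 were called in the first (Vldlr, Lpin1, Bmper and Pkdcc) and 5 in the second (Cubn, Lama1, Srgn, Gata4 and Nxf7). Since the 25 were chosen on the values of the double-positive progeny, which enter every difference, their own differences are a description, and calls are read only from the test across all genes. Against Sox1-FoxA2+ progeny, 14 of the 25 had a 95% interval of the difference wholly above 0, 0 wholly below and 11 across it, and against Sox1+FoxA2- progeny the numbers were 13, 0 and 12. Over all genes tested, 4.54% and 3.53% of the differences had an unadjusted p under 0.05 in either direction (edgeR's quasi-likelihood test of the interaction). The choice of 24 rises and 1 fall in double-positive progeny itself favours differences above 0.

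**Figure D4:**
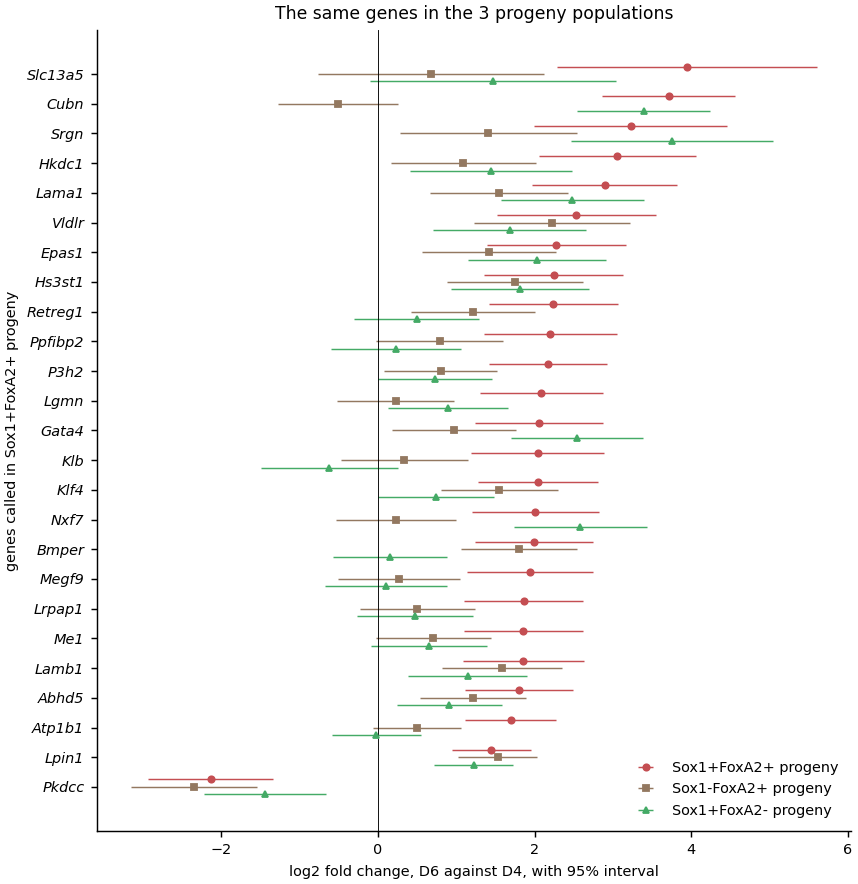
Log2 fold change from D4 to D6 with its 95% interval (x axis) of the 25 genes called in Sox1+FoxA2+ progeny (y axis), in the progeny of the 3 sorted populations. Cubn stands at 3.71 in Sox1+FoxA2+, 3.40 in Sox1+FoxA2- and -0.51 in Sox1-FoxA2+ progeny.

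Against Sox1-FoxA2+ progeny, 2 of 24025 differences were called (0.00832%, edgeR's quasi-likelihood test of the interaction, with 1091 or 4.54% at an unadjusted p under 0.05), those of Cubn and Sox9, both more positive in the double-positive progeny. In Sox1-FoxA2+ progeny, Cubn had 25769 ± 8928 normalized counts at D4 and 17778 ± 6135 at D6 (SD, n = 3), a log2 fold change of -0.51. The difference of the changes was 4.22 (95% interval 3.09 to 5.35, adjusted p = 0.00115, same edgeR test), and the D6 double-positive mean of 11435 ± 6073 remained under both means of Sox1-FoxA2+ progeny. Sox9, which encodes a factor of neural progenitors, neural crest and several epithelia, had 3969, 3556 and 2404 normalized counts in the D4 and 3486, 3456 and 2865 in the D6 double-positive libraries, with overlap and a log2 fold change of 0.00. In Sox1-FoxA2+ progeny it fell by 2.37 (adjusted p = 0.000195, same edgeR test), from 1858 ± 440.3 to 353 ± 88.0. The difference was 2.36 (95% interval 1.55 to 3.17, adjusted p = 0.0358, same edgeR test). Leaving out 1 of the 12 libraries kept the Cubn difference called each time, whereas that of Sox9 was kept only without Sox1-FoxA2+ D4 replicate 1, D4 replicate 3 or D6 replicate 2 and reached an adjusted p of 0.319 without Sox1+FoxA2+ D4 replicate 3. Replicate numbers pair the libraries of a day across populations, and with the number as a block within each day 6 differences were called, Cubn and Sox9 among them (adjusted p = 7.95e-05 and 0.00046, same edgeR test), with Cdk6 (1.91), Hmga1 (2.61), Igfbp3 (2.36) and Fras1 (-2.55). These 4 were named after their values were seen.

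Against Sox1+FoxA2- progeny, 0 differences were called by edgeR's quasi-likelihood test (847 or 3.53% at an unadjusted p under 0.05), also with the block within each day, while DESeq2's Wald test called 20. Cubn changed by 3.40 in Sox1+FoxA2- progeny (adjusted p = 0.000342, same edgeR test), from 249 ± 70.5 to 2576 ± 1027 normalized counts, and the difference of the changes was 0.31 (95% interval -0.78 to 1.41). The largest differences among the 25 genes were 2.66 for Klb (1.45 to 3.87), 2.47 for Slc13a5 (0.29 to 4.66) and 1.97 for Ppfibp2 (0.79 to 3.14), none of them called. Of the genes also called in Sox1+FoxA2- progeny, for Gata4 the difference was -0.49 (-1.62 to 0.63), for Lama1 0.41 (-0.81 to 1.63), for Srgn -0.53 (-2.18 to 1.12) and for Nxf7 -0.58 (-1.71 to 0.55). The intervals of these genes and Cubn reach beyond 1 on the log2 scale on at least 1 side, and a missed threshold does not show that the changes were equal. Levels in the double-positive progeny at D6 lay between those of the single-positive progeny for Cubn, Gata4, Lama1 and Srgn. Lama1 had 445667 ± 153832 normalized counts in Sox1-FoxA2+, 78095 ± 39387 in double-positive and 12777 ± 7303 in Sox1+FoxA2- progeny at D6 (SD, n = 3), and Gata4 19103 ± 5955, 3431 ± 1124 and 801 ± 202.

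**Figure D5:**
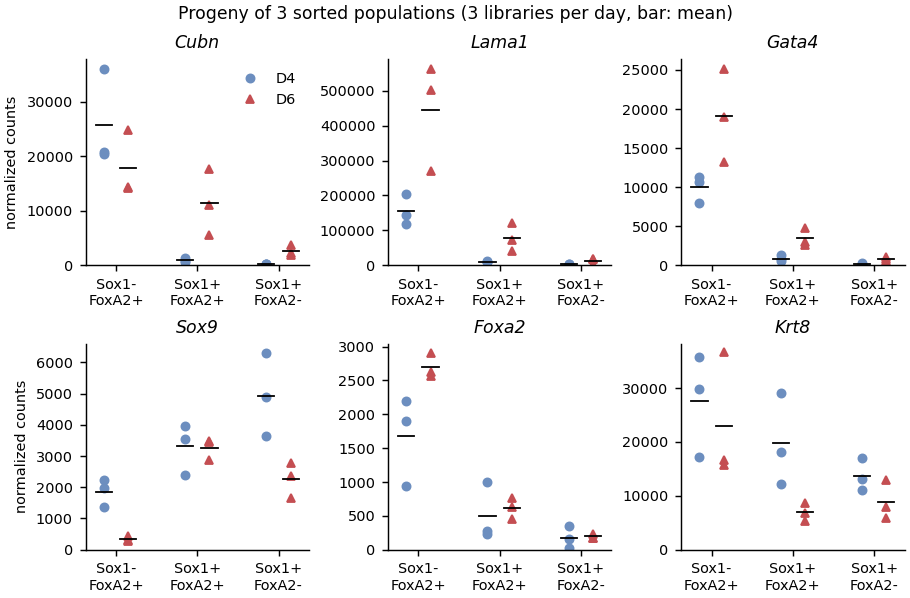
Normalized counts (y axis, linear, from 0) of 6 genes in the 18 progeny libraries by population (x axis), with D4 as circles, D6 as triangles and the mean of 3 libraries as a bar. Cubn rises to 11435 in Sox1+FoxA2+ progeny and stays below the 17778 of Sox1-FoxA2+ progeny, and Sox9 is at 3310 and 3269 in Sox1+FoxA2+ progeny at D4 and D6.

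The medians of the parietal endoderm list were close in the 3 populations, at 1.47 in double-positive, 1.48 in Sox1-FoxA2+ and 1.38 in Sox1+FoxA2- progeny. Other lists lay further apart. In the same order, visceral endoderm had 0.89, 0.13 and 0.31, and floor plate and p3 domain 0.76, 0.46 and -0.58. The G2 and M phase list had -0.49, 0.04 and -0.66. Differences of medians between populations were not tested. Among the 24 rises in double-positive progeny, replicate 1 was the highest D6 library for 18 genes and replicate 3 the lowest for 18, and at D4 replicate 2 was the highest for 14 and replicate 3 the lowest for 16. In the parietal endoderm list, D6 replicate 1 was the highest for 12 of the 20 members and the lowest for 7, and D6 replicate 3 the highest for 6 and the lowest for 12. Genes measured in the same libraries are not independent measures of the change.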

How the data were processed

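Per the labels and the study's methods, libraries were made with the SMART-Seq Stranded Kit. The authors used STAR for alignment, SAMtools, and featureCounts for counts per gene (versions not given in the sources used here) on GENCODE M21 (GRCm38). The deposited values are raw counts of 57 libraries, not normalized, with 3 biological replicates per condition. Lines naming no gene (92 of them) were dropped and held 0 counts. No libraries were identical, and 0 columns belong to no sample. Most low counts are even, as when both mates of a pair are counted. Of 688 coding genes inside another gene with no exon shared 3 had a count (2 of 478 inside genes of the other strand), against 97.6% of 14067 coding genes outside every other gene. This is the pattern left by counting whole gene spans without strand and dropping reads on overlapping genes, so that no length-scaled value is given. The list member named as having most counts, and sums over a list, are in normalized counts not scaled by length, and order no genes by transcript level.

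Genes were tested with edgeR 4.0.16 (default quasi-likelihood test, TMM, prior count 0.125, and filterByExpr at its minimum of 10 counts per library and 15 in total) in R 4.3.3, in 1 fit of the 18 progeny libraries by group, two-sided, with Benjamini-Hochberg adjustment over 24025 genes. Normalized counts are counts divided by DESeq2 1.42.0 size factors. The difference between populations is the interaction in the same fit. Alternatives were DESeq2's Wald test and size factors, no filter, the replicate number as a block, a fit of the compared groups alone, a fit of all 57 libraries, each library left out, and, added after seeing the data, halved counts, the newer quasi-likelihood method and a replicate block within each day. Deviations from group means over 5000 genes correlated between same-numbered libraries at 0.0448, -0.125 and 0.0836 across days, so that numbers do not pair D4 with D6, and at 0.132 to 0.606 between populations of a day, so that they pair there. The test of genes was also run on simulated counts. These were drawn without effects shared between same-numbered libraries of a day, so that the run does not cover such effects.

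The members and lists were chosen with earlier results of these data known, and members of the lists support nothing independently. By rule the text names the reporter genes, the 12 largest rises and falls among called genes without overlap and with a mean of at least 100 normalized counts, called list members, the member with most counts of lists without a call, and called differences. The other called genes and the other uncalled genes were named after their values were seen. Annotation and plots were made in Python 3.11.15 (matplotlib 3.10.9, numpy 2.4.6, pandas 2.3.3).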

Additional observations from a re-analysis of the deposited data

Results flagged for a closer look

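In 2 genes the change from D4 to D6 differed between Sox1+FoxA2+ and Sox1-FoxA2+ progeny by a test of the difference itself, over all 24025 genes (edgeR's quasi-likelihood test, Benjamini-Hochberg adjusted p). Cubn changed by 3.71 on the log2 scale in the first and by -0.51 in the second, a difference of 4.22 (adjusted p = 0.00115), and all 3 D6 libraries lay above all 3 D4 libraries in Sox1+FoxA2+ progeny. Sox9 changed by 0.00 in Sox1+FoxA2+ and by -2.37 in Sox1-FoxA2+ progeny, a difference of 2.36 (adjusted p = 0.0358, same edgeR test). The Cubn difference was called in each of the 12 fits without 1 library, that of Sox9 in 3 of them, and with the newer quasi-likelihood method the call on Sox9 was lost (adjusted p = 0.0663).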

How the results depend on the processing

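The count of 25 called genes moved to 123 with DESeq2's Wald test, 212 without a filter on low counts, 40 with the replicate block, 51 with the newer quasi-likelihood method and 0 with all 57 libraries in 1 fit, and ranged from 1 to 32 without 1 library (1 without D4 replicate 1, 2 without D4 replicate 3, 9 without D6 replicate 1 and 15 without D6 replicate 2). It was 25 with DESeq2's size factors, 27 with only the 6 libraries (14 of them among the 25) and 26 with halved counts. The 2 called differences from Sox1-FoxA2+ progeny moved to 39 with DESeq2's Wald test, 59 without the filter, 4 with only the groups compared, 0 with all 57 libraries, 1 with the newer method (Cubn, not Sox9) and 6 with the replicate block within each day, and ranged from 1 to 4 without 1 library. The 0 called differences from Sox1+FoxA2- progeny moved to 20 with DESeq2's Wald test and 31 without the filter, and ranged from 0 to 1 without 1 library (1 without Sox1+FoxA2- D4 replicate 2). In each case the cause was not tested. The replicate block across days shares only a number between D4 and D6 and left the differences at 2 and 0. For the called genes, 225 of the values under an alternative kept direction and side of the threshold and 125 kept the direction alone, and no value reversed. List medians were read under only part of these alternatives, without the fit of all 57 libraries and that with no filter. Of the list medians read, 331 moved by less than the median SE of their members' log2 fold changes and 2 did not. Among the 37 lists, 15 had a median that changed sign under at least 1 alternative read. Parietal endoderm, visceral endoderm and basement membrane were not among these 15. A limit of 3 counts is 8.09 normalized counts in D4 replicate 1, the shallowest library, and 2.46 in D6 replicate 3. It holds for counting error only and makes no allowance for both mates being counted.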
